A study of Mus musculus with 12 samples.

Results

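Wnt targets and secreted Wnt regulators were followed through the differentiation of mouse embryonic stem (ES) cells with and without induction of the transcription factor Dmrt5. The genes are Wif1, Notum, Dkk1, Sfrp1, Sfrp2, Rspo2, Rspo3, Sp5, Axin2 and Lef1, and every Affymetrix probe set whose single gene symbol in the platform annotation is one of these 10 names was kept. That gave 19 of the 45101 probe sets in the deposited table, for 10 of the 18193 genes named there. RNA was measured on 12 arrays in 6 groups of 2, from ES cells grown as a monolayer in N2B27, a serum-free medium that lets them take a neural fate. The tested line, rtTA-Dmrt5, carries a Dmrt5 transgene that doxycycline (Dox) switches on through the rtTA activator, and its parental line, rtTA, carries the activator without that transgene, as its name gives it. The arrays list Dmrt5 under the name Dmrta2, and it encodes a transcription factor with a DM-type DNA-binding domain that takes part in forebrain and midbrain development.

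The rtTA-Dmrt5 line was harvested at day 9 with Dox, day 9 without Dox, day 7 with Dox and day 7 without Dox, and the parental line at day 7 with Dox and day 7 without it. Dox was added at day 5, so that it had acted for 4 days at day 9 and for 2 days at day 7. The labels do not give how many clones each line stands for or whether replicates came from separate cultures. The p-values below therefore measure the spread between these samples, which may be technical. In bulk RNA, fewer cells of a type and less RNA per cell cannot be told apart.

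Wnt proteins bind Frizzled and LRP5/6 receptors and stabilise beta-catenin, which acts in the nucleus with TCF and LEF factors on target genes. Cells tune the pathway from outside. Wif1 and the Sfrp proteins bind Wnts, Notum removes the lipid that Wnts need, Dkk1 blocks LRP6, and the R-spondins, through LGR receptors, keep Frizzled and LRP6 at the cell surface. In the embryo Wnt signalling sets posterior and dorsal identity of the neural plate, and several of its secreted inhibitors are themselves target genes.

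The values are log2 differences from each probe set's own median over the 12 arrays. They hold no level, and they cannot be compared in size between genes except as differences. The Dmrta2 probe set, 1441107_at, went against the labels. It had -1.07 and -1.92 on day 9 arrays labelled +Dox, against 1.07 and 1.16 on those labelled -Dox. At day 7 it had -0.14 and -0.95 on rtTA-Dmrt5 arrays labelled +Dox, against 1.91 and 1.85 on those labelled -Dox, and the parental values were 0.41 and -0.28 against -0.22 and 0.14. The sources used here do not give which part of the transcript this probe set reads or whether the transgene holds it, so it does not check the labels, and every Dox direction below rests on them. The Dmrta2 difference was -2.61 ± 0.33 at day 9 (SE, limma, adjusted p = 0.000823) and -2.42 ± 0.33 at day 7 (adjusted p = 0.00318). With Dox and without Dox below mean arrays so labelled, and exchanged labels would turn the sign of every Dox response. The hybridisation spike-ins averaged -0.72 on day 9 arrays labelled +Dox, against 0.09 on those labelled -Dox, and the difference between 3' and 5' probe sets of Actb was 0.21 ± 0.02 against -0.02 ± 0.04 (SD, n = 2 each). At day 7 the spike-ins averaged -0.18 with Dox against 0.14 without it in rtTA-Dmrt5 arrays, and -0.15 against 0.13 in rtTA arrays. The Actb difference at day 7 was -0.04 ± 0.13 against 0.06 ± 0.01 in rtTA-Dmrt5 arrays, and -0.22 ± 0.03 against -0.32 ± 0.06 in rtTA arrays. The part of these controls in the results, across Dox and between the lines, was not tested.

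At day 9 the arrays labelled +Dox had more RNA of the inhibitors Wif1, Notum and Dkk1 and of the target Sp5, and less of the agonists Rspo2 and Rspo3 and of the Wnt binder Sfrp2. At day 7 Wif1, Notum, Sp5, Sfrp2, Rspo2 and Rspo3 had already changed in the same directions. In the parental line no probe set of the 10 genes passed adjusted p 0.05 with Dox. Of the 19 probe sets, 6 rose and 6 fell at day 9, where limma called 18.3% of all 45037 probe sets tested at adjusted p 0.05, 10.3% as higher and 7.95% as lower. At day 7, 3 rose and 4 fell, where it called 3.05% of all, 1.26% as higher and 1.79% as lower. The median difference of the 19 was -0.09 at day 9, against -0.02 over all probe sets, and 0.42 at day 7, against 0.01 over all. The genes were chosen with earlier results of these data known, so these counts describe them and support no more.

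**Figure D1:**
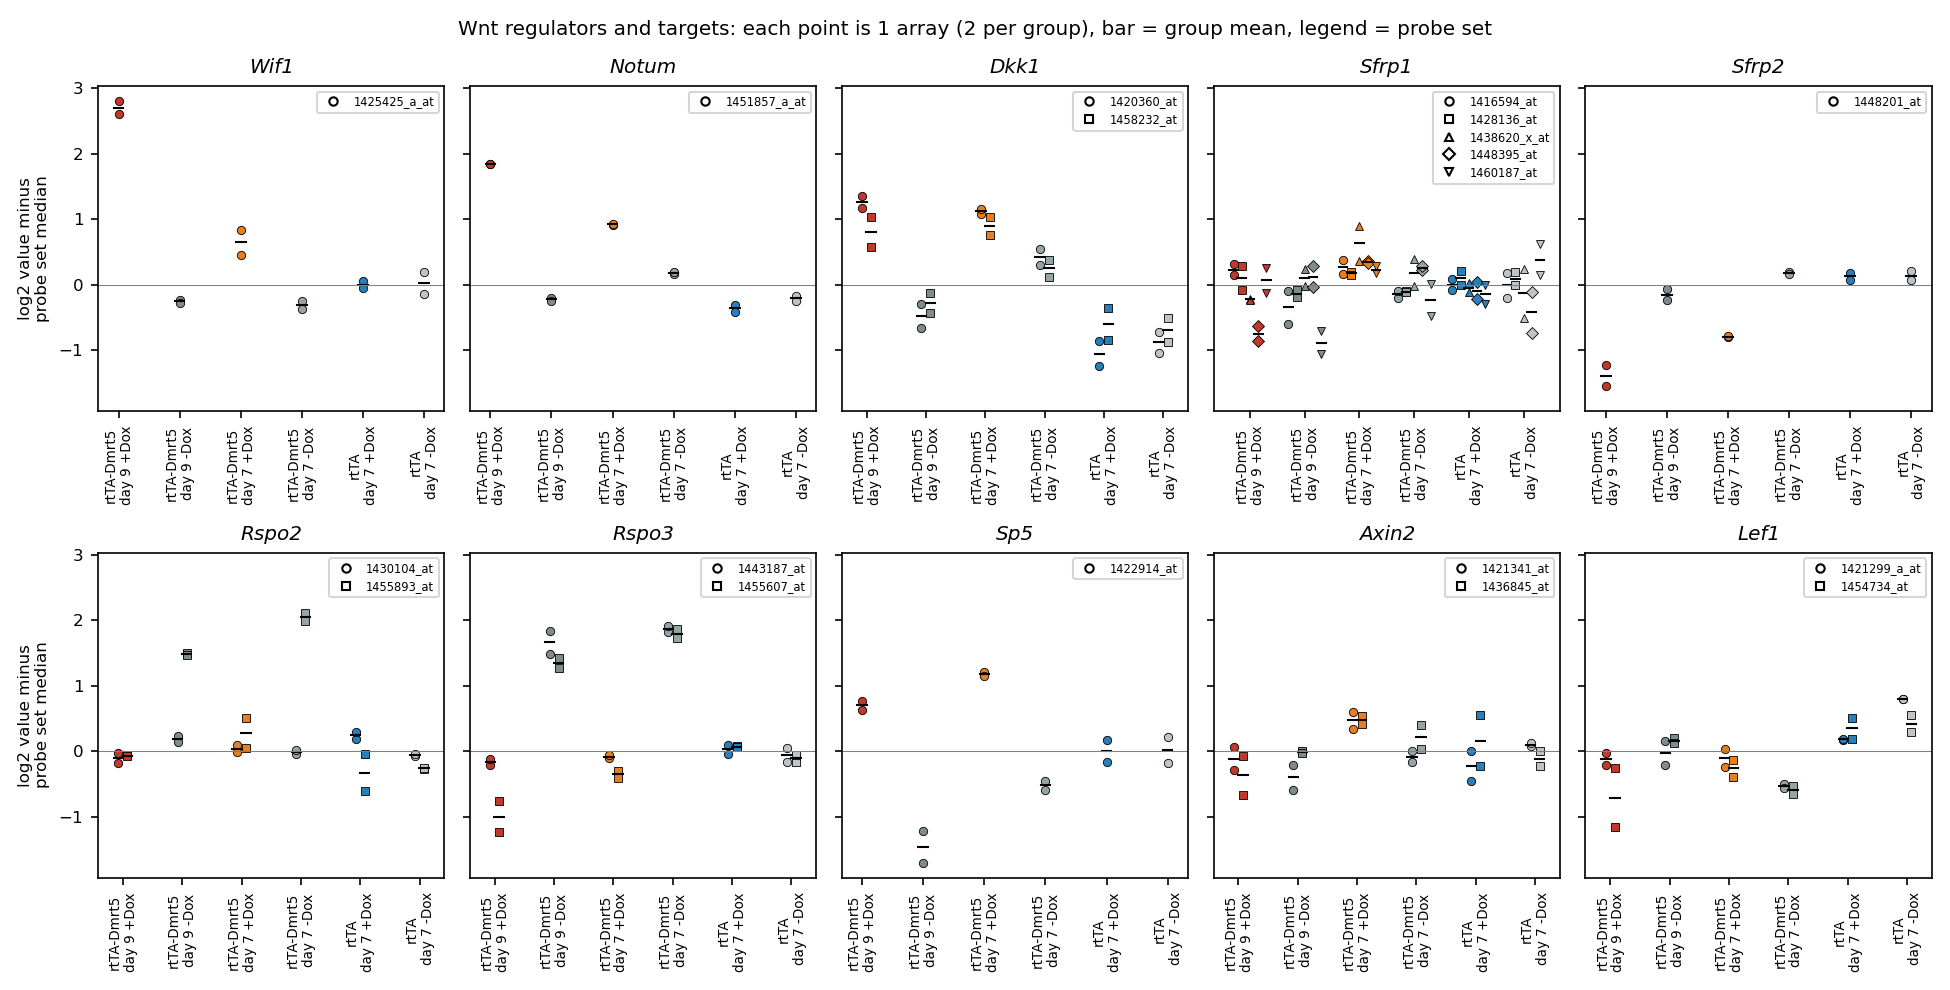
Values of the 19 probe sets on the 12 arrays, as log2 value minus the probe set's median (vertical axis), by group (horizontal axis). Each point is 1 array, each symbol 1 probe set of the gene named above the panel, and each bar the mean of 2 arrays. Wif1 and Notum are highest on day 9 arrays labelled +Dox, Rspo2 1455893_at and Rspo3 are highest in rtTA-Dmrt5 arrays labelled -Dox, and Lef1 1421299_a_at is highest in parental arrays labelled -Dox.

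The R-spondins were lower with Dox at both days. Rspo3, read by probe set 1455607_at, had -0.77 and -1.23 on day 9 arrays labelled +Dox, against 1.26 and 1.42 on those labelled -Dox. Its day 7 values were -0.30 and -0.40 with Dox, against 1.72 and 1.86 without it. Both days thus left a wide gap between the groups. The log2 difference was -2.34 ± 0.15 at day 9 (SE, limma, adjusted p = 2.41e-05), a 5.07-fold decrease. It was -2.15 ± 0.15 at day 7 (adjusted p = 9.18e-05). The other Rspo3 probe set, 1443187_at, gave -1.83 ± 0.14 at day 9 (adjusted p = 5.87e-05), while day 7 gave -1.94 ± 0.14 (adjusted p = 9.38e-05).

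Rspo2 behaved alike on 1 of its probe sets. On 1455893_at it had -0.07 and -0.07 on day 9 arrays labelled +Dox, against 1.50 and 1.47 on those labelled -Dox, and at day 7 it had 0.51 and 0.04 against 1.99 and 2.10. These groups did not overlap. The log2 difference of Rspo2 was -1.55 ± 0.19 at day 9 (adjusted p = 0.000711), while day 7 gave -1.77 ± 0.19 (adjusted p = 0.000812). The second probe set, 1430104_at, stayed between -0.18 and 0.29 on all 12 arrays and passed no comparison. Its recovered signal class was 2 to 4 on the log2 scale, against 4 to 8 for 1455893_at.

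The R-spondins also differed between the lines. Parental Rspo3 values on 1455607_at were 0.08 and 0.06 on arrays labelled +Dox, and -0.16 and -0.06 on those labelled -Dox. For rtTA-Dmrt5 minus rtTA cells, Rspo3 1455607_at gave -0.42 ± 0.15 with Dox in both lines (adjusted p = 0.0957) and 1.90 ± 0.15 without Dox (adjusted p = 3.74e-05). Rspo2 1455893_at gave 0.60 ± 0.19 with Dox (adjusted p = 0.0632) and 2.31 ± 0.19 without it (adjusted p = 4.92e-05). For both genes, arrays labelled +Dox of the rtTA-Dmrt5 line thus lay nearer to the parental values than those labelled -Dox, and the Dmrta2 probe set had this order too.

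The promoters of Sp5, Dkk1 and Wif1 are shown because these genes rose with Dox and differ in the letters that TCF and LEF factors are known to bind. Each is the 250 bases before the start in RefSeq, build GRCm38.p6, written 5' to 3' on the gene's strand. Capitals mark CTTTGA or CTTTGT on either strand, written TCAAAG or ACAAAG on the other. They are Sp5 at chr2:70474673-70474922 (plus strand), Dkk1 at chr19:30549497-30549746 (minus strand) and Wif1 at chr10:121033754-121034003 (plus strand).
Sp5: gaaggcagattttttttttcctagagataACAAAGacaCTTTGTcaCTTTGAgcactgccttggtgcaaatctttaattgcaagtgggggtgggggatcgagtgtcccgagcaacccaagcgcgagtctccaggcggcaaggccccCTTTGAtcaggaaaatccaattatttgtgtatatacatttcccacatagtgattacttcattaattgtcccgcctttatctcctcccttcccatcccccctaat
Dkk1: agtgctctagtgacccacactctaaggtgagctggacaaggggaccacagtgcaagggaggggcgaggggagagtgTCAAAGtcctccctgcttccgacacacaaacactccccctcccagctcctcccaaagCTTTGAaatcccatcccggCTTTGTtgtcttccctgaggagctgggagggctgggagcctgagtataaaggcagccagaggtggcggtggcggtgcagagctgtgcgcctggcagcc
Wif1: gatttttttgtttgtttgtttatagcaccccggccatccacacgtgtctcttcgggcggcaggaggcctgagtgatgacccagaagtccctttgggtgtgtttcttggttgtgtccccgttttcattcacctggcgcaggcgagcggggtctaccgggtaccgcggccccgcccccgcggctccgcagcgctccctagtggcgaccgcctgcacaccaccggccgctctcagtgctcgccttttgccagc
Sp5 holds 4 matches, at 221, 212, 204 and 104 bases before the start, and Dkk1 holds 3, at 174, 117 and 98. Wif1 holds 0. Of 32851 promoters of this length, 27.6% hold at least 1 such match, 0.776% hold 3 or more and 0.094% hold 4 or more. The promoters shown were picked by these matches, so the shares describe them and support no more. Promoters were found for 6 of the 10 genes, 9 in all counting 4 of Lef1. None was found for Notum, which also rose, and those of Axin2 and Sfrp2 held 0 matches. Besides Sp5 and Dkk1 only 1 Lef1 promoter held matches, 3 of them, at 180, 146 and 120 bases before the start. Neither Lef1 probe set was called higher with Dox at either day. The DMRT core ACATTGT, also searched on the other strand as ACAATGT, was in 0 of the 9 promoters found, and in 2.56% of all promoters. A match is a string of letters and not a measured binding site.

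Wif1, which binds Wnts outside the cell, was higher with Dox at both days. Probe set 1425425_a_at had 2.60 and 2.81 on day 9 arrays labelled +Dox, against -0.23 and -0.28 on those labelled -Dox. At day 7 it had 0.45 and 0.84 with Dox, against -0.24 and -0.36 without. Parental arrays lay between -0.15 and 0.20. The recovered signal class of this probe set was 2 to 4 on the log2 scale, so its fold size is set against a low signal. Wif1 rose by 2.95 ± 0.16 at day 9 (adjusted p = 1.27e-05), or 7.75-fold, and by 0.95 ± 0.16 at day 7 (adjusted p = 0.0107). The day 7 call was lost without any 1 of 3 of its 4 arrays, with adjusted p of 0.106 without +Dox replicate 2, and of 0.0543 and 0.1 without -Dox replicate 1 or 2.

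Notum, the enzyme that deacylates Wnts, read by 1451857_a_at, had 1.84 on both day 9 arrays labelled +Dox, against -0.20 and -0.24 on those labelled -Dox. Its day 7 values were 0.91 and 0.93 with Dox, against 0.17 and 0.19 without, and no array of the parental line exceeded -0.17. Notum rose by 2.06 ± 0.10 at day 9 (adjusted p = 7.39e-06) and by 0.74 ± 0.10 at day 7 (adjusted p = 0.00232). The rise was larger at day 9 than at day 7 for both genes, by 2.01 ± 0.22 for Wif1 (adjusted p = 0.0118) and 1.32 ± 0.14 for Notum (adjusted p = 0.00807). No other probe set of the 10 genes passed that test, in which limma called 0.639% of all probe sets, 0.324% as higher and 0.315% as lower. Both calls were lost without day 7 +Dox replicate 1 (adjusted p = 0.0623 each) or day 7 -Dox replicate 1 (0.0694 for Wif1 and 0.0673 for Notum), and Wif1's also without day 9 -Dox replicate 1 (0.0605).

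Dkk1, the LRP6 antagonist, had 1.35 and 1.17 on day 9 arrays labelled +Dox, against -0.65 and -0.30 on those labelled -Dox, on probe set 1420360_at. The day 7 values were 1.08 and 1.16 with Dox, against 0.54 and 0.30 without. Parental arrays were lowest, between -1.24 and -0.72. Dkk1 rose by 1.74 ± 0.18 at day 9 (adjusted p = 0.000318), and its day 7 difference of 0.70 ± 0.18 did not pass (adjusted p = 0.0731). Its second probe set, 1458232_at, rose by 1.09 ± 0.22 at day 9 (adjusted p = 0.00895), a call lost without day 9 +Dox replicate 2 (0.0531) or day 9 -Dox replicate 1 (0.0689). Between the lines, Dkk1 1420360_at exceeded its parental value by 2.17 ± 0.18 with Dox (adjusted p = 3.67e-05) and by 1.30 ± 0.18 without it (adjusted p = 0.00103).

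Sfrp2, a secreted Frizzled-related protein, read by 1448201_at, had -1.55 and -1.22 on day 9 arrays labelled +Dox, against -0.07 and -0.23 on those labelled -Dox. Its day 7 values were -0.80 and -0.78, against 0.19 and 0.17. Parental arrays lay between 0.07 and 0.21, as high as the day 7 arrays labelled -Dox. The log2 difference of Sfrp2 was -1.24 ± 0.13 at day 9 (adjusted p = 0.00032), while day 7 gave -0.97 ± 0.13 (adjusted p = 0.0026).

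Sfrp1 has 5 probe sets, and they disagreed. At day 9, 1460187_at rose by 0.95 ± 0.22 (adjusted p = 0.0164) while 1448395_at fell by 0.87 (SE 0.20, adjusted p = 0.0146), and both are among the 3 Sfrp1 probe sets annotated to the same transcript entry. The third of these, 1416594_at, gave 0.57 ± 0.18 (adjusted p = 0.055). On the arrays, 1448395_at had -0.86 and -0.64 with Dox, against 0.28 and -0.04 without, and 1460187_at had -0.13 and 0.26 against -1.06 and -0.71. The remaining probe sets did not pass at day 9 either, 1428136_at at 0.24 ± 0.14 (adjusted p = 0.267) and 1438620_x_at at -0.33 ± 0.25 (adjusted p = 0.41). No Sfrp1 probe set passed at day 7, where the 5 gave between 0.09 and 0.46. Each day 9 call was lost without either of 2 arrays, with adjusted p of 0.0905 without +Dox replicate 1 and 0.104 without -Dox replicate 1 for 1448395_at, and of 0.0889 without +Dox replicate 2 and 0.113 without -Dox replicate 1 for 1460187_at. Sfrp1 RNA is therefore given no direction here.

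Sp5, a zinc-finger factor and a direct Wnt target, read by 1422914_at and with 4 of the matches printed above in its promoter, had 0.77 and 0.62 on day 9 arrays labelled +Dox, against -1.22 and -1.70 on those labelled -Dox. At day 7 it had 1.21 and 1.15 with Dox, against -0.45 and -0.59 without. Parental arrays lay between, from -0.17 to 0.22. Sp5 rose by 2.16 ± 0.19 at day 9 (adjusted p = 0.000135), or 4.46-fold, and by 1.70 ± 0.19 at day 7 (adjusted p = 0.00106).

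Axin2, a feedback inhibitor of beta-catenin and a widely used Wnt target, did not pass in either Dox response. Its probe set 1436845_at had -0.66 and -0.07 on day 9 arrays labelled +Dox, against 0.00 and -0.03 on those labelled -Dox, and at day 7 it had 0.42 and 0.54 against 0.03 and 0.40. The day 9 difference was -0.35 (adjusted p = 0.402) and the day 7 difference 0.27 (adjusted p = 0.716). The dimmer 1421341_at gave 0.28 at day 9 (adjusted p = 0.355), while day 7 gave 0.56 ± 0.19 (adjusted p = 0.192).

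Lef1, a DNA-binding partner of beta-catenin and itself a target, differed between the lines. On 1421299_a_at, rtTA-Dmrt5 day 7 arrays labelled -Dox had -0.50 and -0.56, against 0.79 and 0.80 on parental arrays labelled -Dox, a difference of -1.33 ± 0.14 (adjusted p = 0.00025). Its Dox response did not pass at day 9 (-0.09, adjusted p = 0.709) or at day 7 (0.42, adjusted p = 0.183). The second probe set, 1454734_at, had -1.16 and -0.26 on day 9 arrays labelled +Dox, against 0.19 and 0.13 on those labelled -Dox. That fall of 0.87 on the log2 scale (SE 0.25, adjusted p = 0.0368) was lost without day 9 +Dox replicate 1, where the difference was -0.42 (adjusted p = 0.191), and without day 9 -Dox replicate 1 (0.144) or 2 (0.103). It was also lost when only the arrays of this comparison were fitted (0.12). Without day 9 +Dox replicate 2 the difference was -1.32.

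**Figure D2:**
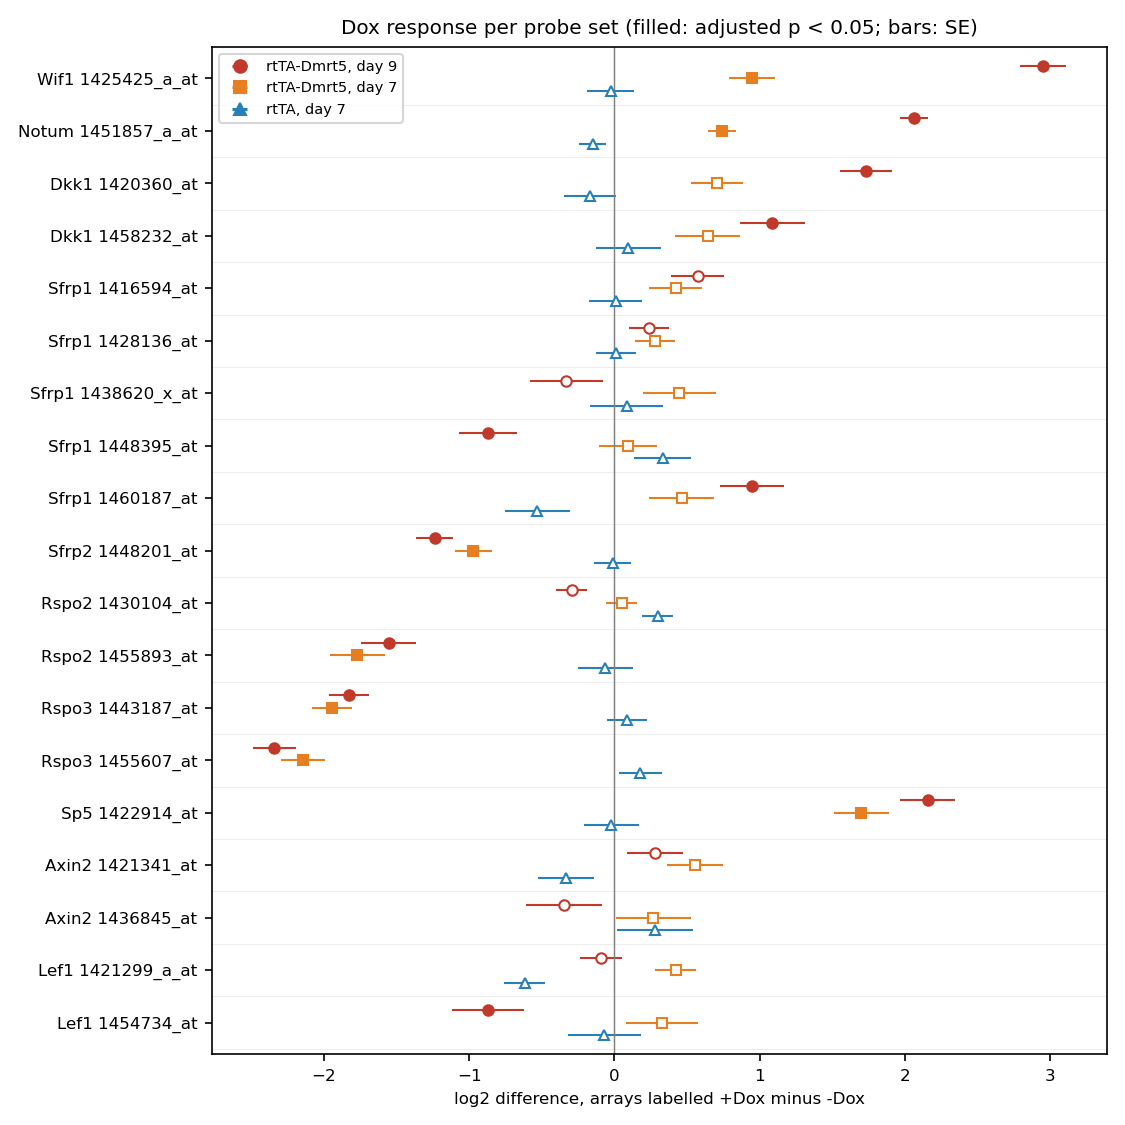
Dox response of each probe set as the log2 difference of arrays labelled +Dox minus -Dox (horizontal axis), for rtTA-Dmrt5 at day 9, rtTA-Dmrt5 at day 7 and rtTA at day 7. Filled symbols passed adjusted p 0.05 and bars are SE. Wif1, Notum and Sp5 lie to the right and Rspo3 to the left at both days, and the responses of rtTA cells stay between -0.62 and 0.33.

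In the parental line, 0 of the 19 probe sets and 0 of all 45037 passed with Dox (limma). At an unadjusted p under 0.05 there were 3 of the 19 and 2323 of all. The 3 were Lef1 1421299_a_at at -0.62, Sfrp1 1460187_at at -0.53 and Rspo2 1430104_at at 0.30. The difference between the lines in the day 7 response was tested directly, and limma called 1.04% of all probe sets, 0.3% as higher and 0.739% as lower. Of the 19, 3 were higher and 4 lower. The Rspo3 response in rtTA-Dmrt5 cells minus that in rtTA cells was -2.32 ± 0.21 on 1455607_at (adjusted p = 0.00147) and -2.03 ± 0.19 on 1443187_at (adjusted p = 0.00178). Sp5 differed by 1.72 ± 0.27 (adjusted p = 0.017), Rspo2 1455893_at by -1.71 ± 0.27 (adjusted p = 0.0175), Notum by 0.89 ± 0.14 (adjusted p = 0.0142), Sfrp2 by -0.96 ± 0.18 (adjusted p = 0.0386) and Lef1 1421299_a_at by 1.04 ± 0.20 (adjusted p = 0.0458). Lef1 passed here with neither line's own response passing. These were 0.42 ± 0.14 in rtTA-Dmrt5 cells (adjusted p = 0.183) and -0.62 ± 0.14 in rtTA cells (adjusted p = 0.856). The other Lef1 probe set, 1454734_at, gave 0.33 ± 0.25 in rtTA-Dmrt5 cells and -0.07 ± 0.25 in rtTA cells. Its difference of 0.40 ± 0.35 did not pass (adjusted p = 0.717). The recovered signal class was 2 to 4 for 1421299_a_at and 8 or more for 1454734_at. Wif1 gave 0.98 ± 0.22 (adjusted p = 0.0883). Leaving out any 1 of the 8 day 7 arrays left between 2 and 4 of these 7 calls, and the Rspo3 calls were the only ones kept each time.

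**Figure D3:**
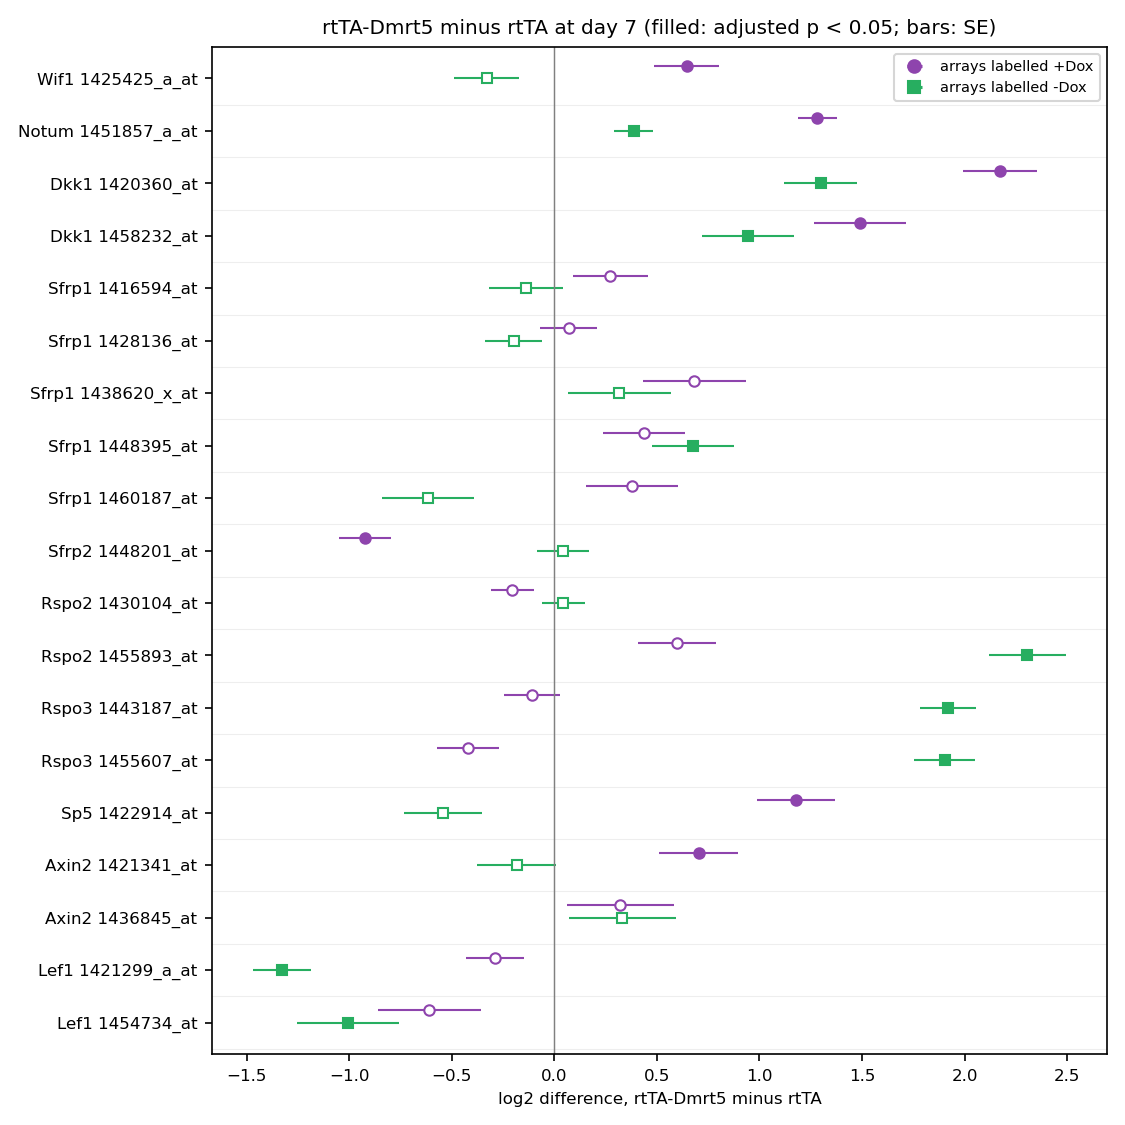
Difference between the lines at day 7, rtTA-Dmrt5 minus rtTA, per probe set (horizontal axis, log2), for arrays labelled +Dox and arrays labelled -Dox. Filled symbols passed adjusted p 0.05 and bars are SE. Rspo2 1455893_at and both Rspo3 probe sets lie near 2 without Dox and nearer to 0 with Dox, while Dkk1 and Notum are above 0 in both.

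With Dox in both lines, 6 of the 19 probe sets were higher and 1 lower in rtTA-Dmrt5 than in rtTA cells, where limma called 14.6% of all, 7.83% as higher and 6.81% as lower. Notum differed by 1.28 ± 0.10 with Dox (adjusted p = 1.93e-05) and by 0.39 ± 0.10 without (adjusted p = 0.019). Sp5 was 1.18 ± 0.19 higher with Dox (adjusted p = 0.00219), and without it the difference was -0.54 (adjusted p = 0.0761). Wif1 was 0.65 ± 0.16 higher (adjusted p = 0.0216), a call lost without rtTA-Dmrt5 +Dox replicate 2 (0.171) or rtTA +Dox replicate 1 (0.107) or 2 (0.0622). The Axin2 probe sets disagreed in the call. Probe set 1421341_at gave 0.70 ± 0.19 (adjusted p = 0.035), and 1436845_at gave 0.32 ± 0.26 (adjusted p = 0.508). The Axin2 call was lost without rtTA-Dmrt5 +Dox replicate 1 (0.0669) or 2 (0.206) or rtTA +Dox replicate 1 (0.213), with these arrays alone (0.0875) and with the gene's mean (0.0979). Sfrp2 differed by -0.92 ± 0.13 with Dox (adjusted p = 0.000902). Without Dox, 7 were higher and 2 lower, where limma called 18.7% of all, 8.72% as higher and 9.95% as lower. Those higher were Notum, Sfrp1 1448395_at, Rspo2 1455893_at and both probe sets of Dkk1 and of Rspo3, and those lower were both of Lef1. The Notum call without Dox was lost without any 1 of its 4 arrays (0.0596 to 0.106). Those of Sfrp1 1448395_at (0.12 to 0.272) and Lef1 1454734_at (0.0647 to 0.125) were lost without rtTA-Dmrt5 -Dox replicate 1 or 2 or rtTA -Dox replicate 1, and that of Dkk1 1458232_at without rtTA-Dmrt5 -Dox replicate 1 (0.101) or rtTA -Dox replicate 2 (0.104). Without rtTA -Dox replicate 1 the Sfrp1 1448395_at difference was 0.36, against 0.68 with it. Without rtTA-Dmrt5 -Dox replicate 1 the calls without Dox numbered 5 in all.

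Under Dox, Wif1 and Notum were higher at day 9 than at day 7. For day 9 minus day 7 with Dox, 2 of the 19 rose and 3 fell, where limma called 9.1% of all, 5.18% as higher and 3.92% as lower. Wif1 rose by 2.06 ± 0.16 (adjusted p = 0.000144) and Notum by 0.92 ± 0.10 (adjusted p = 0.000651). The differences were -1.10 for Sfrp1 1448395_at, -0.59 for Sfrp2 and -0.65 for Rspo3 1455607_at. Rspo3 1443187_at gave -0.08 and did not pass (adjusted p = 0.779). The other Sfrp1 probe sets gave between -0.86 and -0.05 and did not pass either. Without Dox, 0 rose and 3 fell, where it called 7.65% of all, 4.29% as higher and 3.37% as lower. Dkk1 1420360_at gave -0.89 ± 0.18 (adjusted p = 0.0148), Sp5 -0.94 ± 0.19 (adjusted p = 0.0153) and Notum -0.40 ± 0.10 (adjusted p = 0.0313). The second Dkk1 probe set, 1458232_at, gave -0.53 ± 0.22 and did not pass (adjusted p = 0.202). Left-out arrays took adjusted p as high as 0.0585 for the fall of Sfrp1 1448395_at, 0.11 for that of Sfrp2 and 0.138 for that of Rspo3 1455607_at, and as high as 0.117 for Dkk1, 0.107 for Sp5 and 0.155 for Notum without Dox. Without day 9 +Dox replicate 2 the Rspo3 1455607_at difference with Dox was -0.41. The 5 calls with Dox became 2 without day 7 replicate 1 or 2 and 3 without day 9 replicate 1. The 3 calls without Dox became 0 without day 7 replicate 1 and 1 without day 7 or day 9 replicate 2.

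Genes called in the other lists of the pathway went in both directions. In the counts below a gene is called where any of its probe sets passed. Values given for these genes are of passing probe sets, and other probe sets of the same gene did not all pass. By that rule limma called 18.6% of all 18193 genes as higher and 12.4% as lower at day 9, and 2.35% as higher and 3.06% as lower at day 7. Some list counts are near these shares, and a gene with more probe sets has more chances to be called. Of 19 Wnt ligands, 5 rose and 2 fell at day 9, and 6 rose and 3 fell at day 7. Wnt1, a dorsal midline and midbrain signal, rose by 2.40 ± 0.25 at day 9 (adjusted p = 0.000305), while day 7 gave 2.83 ± 0.25 (adjusted p = 0.000257). Wnt5a, which mostly signals without beta-catenin, rose by 2.99 ± 0.23 at day 9 on 1437673_at (adjusted p = 6.78e-05), and its receptor Ror2 by 1.73 ± 0.12 on 1423428_at (adjusted p = 3.13e-05). Wnt7b gave -1.97 ± 0.18 at day 9 on 1420892_at (adjusted p = 0.000158).

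Of 13 other secreted regulators, 1 rose and 5 fell at day 9, and 0 rose and 1 fell at day 7. The day 9 falls included the remaining R-spondins, Rspo1 at -0.81 ± 0.18 (adjusted p = 0.0122) and Rspo4 at -0.67 ± 0.16 (adjusted p = 0.0163). Sost, an LRP5/6 antagonist, rose by 1.08 ± 0.23 on 1 of its probe sets (adjusted p = 0.00994). Of 20 receptor and turnover genes, 7 rose and 6 fell at day 9, and 3 rose and 2 fell at day 7. Lgr4, an R-spondin receptor, gave -0.88 ± 0.12 at day 9 (adjusted p = 0.00126), while day 7 gave -0.86 ± 0.12 (adjusted p = 0.00396). Of 20 cytoplasmic and nuclear components, 5 rose and 6 fell at day 9 with Tcf7l2 in both counts, and 1 rose and 1 fell at day 7.

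Of 14 other Wnt targets, 7 rose and 3 fell at day 9, and 2 rose and 1 fell at day 7. Nkd1, a feedback inhibitor, rose by 0.75 ± 0.16 at day 9 (adjusted p = 0.0102) and by 0.93 ± 0.16 at day 7 (adjusted p = 0.0124) on 1429506_at. Tnfrsf19 rose by 2.14 ± 0.13 at day 9 (adjusted p = 1.83e-05) and by 1.16 ± 0.13 at day 7 (adjusted p = 0.00107) on 1448147_at. Ccnd1 fell by 0.50 on the log2 scale at day 9 on 1448698_at (SE 0.10, adjusted p = 0.00721). List medians at day 9 were 0.18 for ligands, -0.31 for other secreted regulators, 0.08 for receptors, -0.01 for inner components and 0.05 for targets, against -0.02 over all probe sets. In the parental line 0 genes of every list passed.

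**Figure D4:**
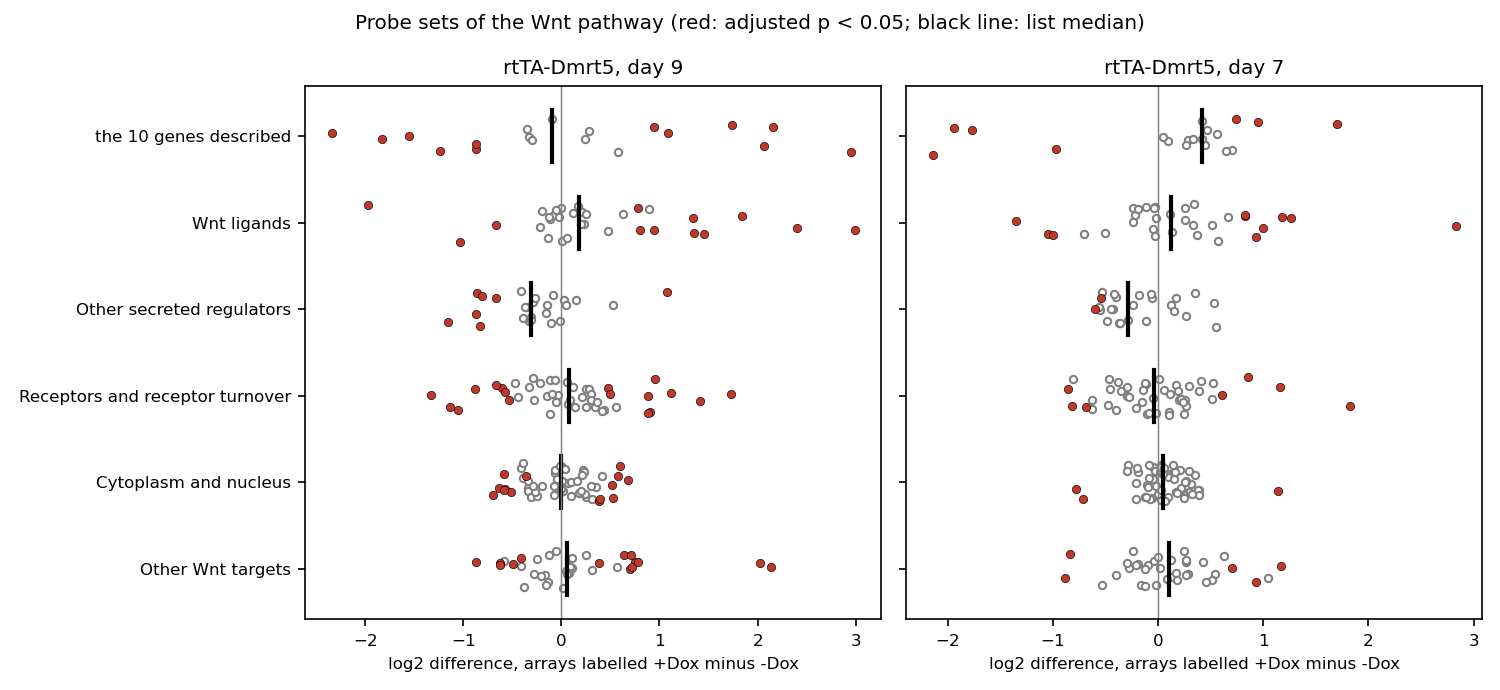
Dox responses of rtTA-Dmrt5 cells at day 9 (left) and day 7 (right) as log2 differences of arrays labelled +Dox minus -Dox (horizontal axis), for the 19 probe sets and for 5 lists of other pathway genes. Each point is 1 probe set, filled where adjusted p passed 0.05, and black bars are medians. Other secreted regulators have the lowest median at day 9, -0.31.

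By Pearson correlation over the 12 arrays, which share groups and therefore rank genes by group pattern, the probe set most like Rspo3 1455607_at was that of Otx1 (r = 0.976), followed by Dmrta2 (r = 0.969) and Zic1 (r = 0.969). Sp5 was nearest to Nudt4 (r = 0.976) and then Ror2 (r = 0.962). Wif1 was nearest to Rpn1 (r = 0.988), Notum to Mbd2 (r = 0.99), Dkk1 to Rrbp1 (r = 0.991), Sfrp2 to Skida1 (r = 0.968), Rspo2 to C230035I16Rik (r = 0.959), Lef1 to Rbfox2 (r = 0.978), Sfrp1 1460187_at to Bdp1 (r = 0.944) and Axin2 1421341_at to Trpm7 (r = 0.919). The gene named first for each is the highest among probe sets of other genes with 1 gene symbol. All are given as a description of these 12 arrays.

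Markers of other cell types moved with Dox as well. Beside the counts below, limma called 10.3% of all probe sets as higher and 7.95% as lower at day 9. At day 7 it called 1.26% as higher and 1.79% as lower. Neuron markers fell on 9 of 16 probe sets at day 9, with array means of -0.60 and -0.45 on arrays labelled +Dox, against 0.27 and 0.29 on those labelled -Dox. Surface epithelium markers rose on 8 of 9, with means of 0.84 and 0.61 against -0.33 and -0.56, and mesoderm and endoderm markers on 7 of 16, with 0.89 and 0.60 against -0.01 and 0.03. Neural progenitor markers rose on 3 and fell on 3 of 14, ES cell markers rose on 4 of 9, mesenchyme markers rose on 5 and fell on 3 of 17, and neural crest markers fell on 6 of 13. At day 7 neuron markers fell on 7 of 16, neural progenitor markers on 4 of 14 and neural crest markers on 3 of 13, with 0 rising. ES cell markers rose on 2 of 9, surface epithelium markers on 2 of 9, and mesenchyme markers rose on 2 and fell on 4 of 17. Mesoderm and endoderm markers passed on 0 of 16.

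Markers also differed between the lines at day 7. The mesoderm and endoderm means were 0.47 and 0.44 in rtTA-Dmrt5 arrays labelled +Dox and 0.04 and -0.05 in those labelled -Dox, against -1.49 and -1.81 in rtTA arrays labelled +Dox and -1.17 and -1.39 in those labelled -Dox. Surface epithelium means were 0.55 and 0.63 in rtTA-Dmrt5 arrays labelled +Dox and -0.15 and -0.10 in those labelled -Dox, against -0.69 and -0.55 in rtTA arrays labelled +Dox and -0.92 and -0.63 in those labelled -Dox. ES cell means were -0.37 and -0.25 in rtTA-Dmrt5 arrays labelled +Dox and -0.78 and -0.85 in those labelled -Dox, against 0.50 and 0.48 in rtTA arrays labelled +Dox and 0.53 and 0.44 in those labelled -Dox. In these 3 lists the lines did not overlap. Neuron and neural crest means were also lower in every rtTA-Dmrt5 array of day 7 than in every rtTA array, whereas neural progenitor and mesenchyme means overlapped. List means hide members that went opposite ways. Without Dox, limma called Krt8, Krt18 and Krt19 higher in rtTA-Dmrt5 cells, but Cdh1 and Epcam lower. Of the ES cell genes it called Klf4 higher and 5 lower, and of the mesoderm and endoderm genes 4 higher and 0 lower. Of all genes, 15.2% had a probe set that was higher there and 15.6% one that was lower. Centred values do not show which markers were absent. The part of these markers in the Wif1, Notum, Dkk1, Sp5, Lef1 and R-spondin values, across Dox and between the lines, was not tested.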

How the data were processed

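RNA was amplified from 5 ng per sample with a NuGEN kit and labelled with biotin, per the labels' protocols. The authors' deposited values are RMA values, per the submitters' processing notes (version not given in the sources used here), and are taken as log2. Each of the 45101 probe sets is centred on its median over the arrays, which no source used here mentions. Probe sets were named from the platform annotation of 2016; of 45037 tested, 34945 had 1 symbol, 932 several and 9160 none. Promoters and names came from RefSeq GRCm38.p6.

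Samples were grouped by the labels' line, day and treatment. limma 3.58.1 (R 4.3.3) fitted 6 group means to 12 arrays, with eBayes and Benjamini-Hochberg adjustment over 45037 probe sets in each of 9 comparisons, threshold 0.05, and 6 residual and 3.92 prior degrees of freedom. Signal classes were recovered from the spacing of the centred numbers (97.1% of 20000 simulated probe sets read right). On simulated data for the day 7 response, over 45037 probe sets, 77 of 100 changes of size 1 and 3 of 100 of size 0.5 were called. The other 44837 held no change, whereas the day 7 data gave 1372 calls, so the share missed in the data may differ.

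The 10 genes, the pathway and marker lists and the tests were chosen with earlier results of these data known. All probe sets of the 10 genes are named. Other genes are list members past the threshold, Dmrta2, and those ranked highest by correlation. Between replicates 0.118 to 0.178% of values were identical. Python 3.11.15 read the table.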

Additional observations from a re-analysis of the deposited data

Results flagged for a closer look

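The Dox response at day 7 differed between the rtTA-Dmrt5 and rtTA lines, by a direct test of the difference in limma at adjusted p 0.05, on 7 probe sets. The differences, rtTA-Dmrt5 minus rtTA, were 0.89 for Notum, -0.96 for Sfrp2, -1.71 for Rspo2 1455893_at and 1.72 for Sp5. They were -2.03 for Rspo3 1443187_at, -2.32 for Rspo3 1455607_at and 1.04 for Lef1 1421299_a_at. The Lef1 1421299_a_at responses were 0.42 in rtTA-Dmrt5 and -0.62 in rtTA cells, and neither passed. The other Lef1 probe set, 1454734_at, differed by 0.40 and did not pass (adjusted p = 0.717). The Dox response of rtTA-Dmrt5 cells differed between the days on 2 probe sets, by the same kind of test, day 9 minus day 7: 2.01 for Wif1 and 1.32 for Notum.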

How the results depend on the processing

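With 2 arrays per group, changes under a log2 size of 1 can be missed, and the simulation does not give how often in these data. For the 52 called values of the 10 genes, 158 of 244 values without 1 array and 329 of 356 under other settings kept direction and call. The Dox response counts of rtTA-Dmrt5 cells stayed within 1.5 times of 12 at day 9 and 7 at day 7. Called probe sets for the difference between lines numbered 2 to 4 of 7 without 1 array, for the difference between days 0 to 3 of 2, for day 9 minus day 7 2 to 6 of 5 with Dox and 0 to 2 of 3 without Dox, and for the lines without Dox 5 to 7 of 9. With only the arrays of the comparison fitted, day 9 minus day 7 gave 3 with Dox and 1 without Dox. Array quality weights gave 5 without Dox. A filter at recovered level 4 or more, which leaves out Wif1, left 1 for the difference between days. With gene means in place of probe sets, Rspo2 1430104_at at day 7 took its gene's -0.86, and Sfrp1 1448395_at at day 9 took 0.11, because the mean mixes probe sets that disagree. The replicate block left 3 calls for the difference between lines and 0 for the difference between days, and Lef1 1454734_at at day 9 had an adjusted p of 0.0608 in it. Same-numbered arrays deviated with correlations of 0.03, -0.06 and 0.14, so the numbers are not taken as pairs. Over all probe sets, or all genes where gene means were fitted, calls ran without 1 array and under other settings from 3426 to 8220 at day 9 (8230 in the fit reported), 496 to 2666 at day 7 (1372), 0 to 1 in the parental line (0), 173 to 659 for the difference between lines (468), 0 to 625 for that between days (288), 1299 to 4754 over time with Dox (4098) and 1210 to 4418 without (3447), and 3855 to 7153 between lines with Dox (6595) and 4100 to 10084 without (8408). Apart from the gene means, the cause was not tested.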

Other observations

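Other Wnt pathway genes also differed over time and between the lines in limma at adjusted p 0.05. For day 9 minus day 7 in rtTA-Dmrt5 cells without Dox, 0 of 19 Wnt ligands rose and 7 fell, namely Wnt1, Wnt3, Wnt4, Wnt5a, Wnt5b, Wnt8b and Wnt9a, with a list median of -0.42 against -0.01 over all probe sets. Of all genes, 7.24% had a probe set that rose in that comparison and 6.11% one that fell. In the same comparison 2 of 20 receptor and turnover genes rose (Fzd1 and Fzd8) and 7 fell, among them Rnf43 and Znrf3, the ubiquitin ligases that remove Frizzled from the cell surface. For rtTA-Dmrt5 minus rtTA cells at day 7 without Dox, 6 of 19 ligands were higher and Wnt8a was lower, where 15.2% of all genes had a probe set that was higher and 15.6% one that was lower. Of 13 other secreted regulators, 4 were higher (Apcdd1, Dkk3, Rspo1 and Rspo4) and 2 lower (Cer1 and Frzb), so that all 4 R-spondin genes had a probe set that was higher there.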
